A study of Mus musculus with 8 samples.

Results

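Coagulation and fibrinolysis genes were followed in neutrophils from the lungs of wild type (WT) mice with pneumococcal pneumonia. The genes were F3, F5, F7, F10, Tfpi, Thbd, Procr, Plau and Plaur, chosen by name with earlier results of these data known. A symbol with several rows was to be represented by its brightest row on average, but each gene found had 1 row. Rows were matched for 7 of the 9 genes, out of 19836 genes with a symbol and 24625 rows in all. Procr, which encodes the endothelial protein C receptor, and Plaur, which encodes the urokinase receptor, had no matched row and have no value here.

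The mice were wild type, aged 6 to 12 weeks per the labels, and the methods name C57BL/6J animals from a colony founded with females. The methods give a narrower range of ages within that of the labels. By the methods the mice were matched for age and sex, and the sex of those studied is not named. All had been anesthetized, and 2.3 µl of fluid per g of mouse had been instilled into the left lung by way of the trachea. The 4 PBS samples came from mice given phosphate-buffered saline, and the 4 SP samples from mice given a suspension of Streptococcus pneumoniae. Lungs were taken 24 h later, and cells carrying the neutrophil surface protein Ly6G were collected with antibody and magnetic beads. RNA of each sample was hybridised to 1 Affymetrix Mouse Gene 1.1 ST array, and levels are given as normalised log2 intensity, on which 1 unit is a 2-fold difference. Levels of different genes come from different probes and cannot be compared with each other. The number of arrays limits the precision.

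As background, clotting starts when tissue factor, the product of F3, meets factor VII (F7) on a cell surface. The pair activates factor X (F10), which with its cofactor factor V (F5) turns prothrombin into thrombin, and thrombin turns fibrinogen into fibrin. Tissue factor pathway inhibitor (Tfpi) blocks the first steps. Thrombomodulin (Thbd) on endothelium binds thrombin and, with the receptor encoded by Procr, turns it toward activation of the anticoagulant protein C. Fibrin is removed by plasmin, which urokinase (Plau), held on cells by its receptor (Plaur), releases from plasminogen. In pneumonia these systems meet in the airspace, where fibrin is deposited as plasma leaks from the vessels, and monocytes, macrophages and neutrophils can carry several of the proteins.

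The sort label was checked against marker genes. The methods report purity, judged on stained cells, for the pneumonia samples only and not for PBS. Neutrophil markers were bright in both groups, with a mean of 9 genes between 12.04 and 12.29 on PBS arrays and between 11.45 and 12.69 on SP arrays. The brightest genes of this list were Retnlg, at 13.32 to 13.39 in PBS and 12.56 to 13.35 in SP, and S100a8, at 13.12 to 13.26 and 12.79 to 13.32. Of the 9 neutrophil genes, 8 were lower in SP on average. The test called 2, Retnlg among them, both lower and by less than 2-fold. Ly6g, the gene of the protein used for the sort, had no matched row. Markers of several other lung cells were bright too, and many were lower in SP. The mean of 11 endothelial markers was between 10.31 and 11.31 in PBS and between 8.67 and 9.86 in SP, and 10 of the 11 passed the test as lower. All 5 mesothelial and all 7 club and ciliated markers measured were lower as well, as were 7 of 8 alveolar type 2, 4 of 6 alveolar type 1 and 6 of 8 alveolar macrophage markers. The list of 10 monocyte and macrophage markers overlapped between groups (7.93 to 8.81 in PBS, 7.75 to 9.28 in SP), with 4 genes higher and 1 lower. The fibroblast list overlapped as well (8.25 to 9.03 in PBS, 7.46 to 9.17 in SP), with 2 of 6 genes called, both lower. For comparison with these counts, limma called 21.5% of all rows higher and 22.6% lower. The Y-linked genes, which serve as a measure of background, reached 4.90, and no marker of these lists was at or below that level on every array. In such sorted bulk samples, fewer cells of a type and less RNA per cell cannot be told apart. SP replicate 3 stood apart from the other SP samples, with the highest neutrophil mean (12.69) and the lowest endothelial mean (8.67) of the group. In the neutrophil list it lay farthest above the other SP arrays in Camp (10.94), Ltf (12.10) and Ngp (13.34). Csf3r (12.67) was lowest of the SP group on that array.

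**Figure D1:**
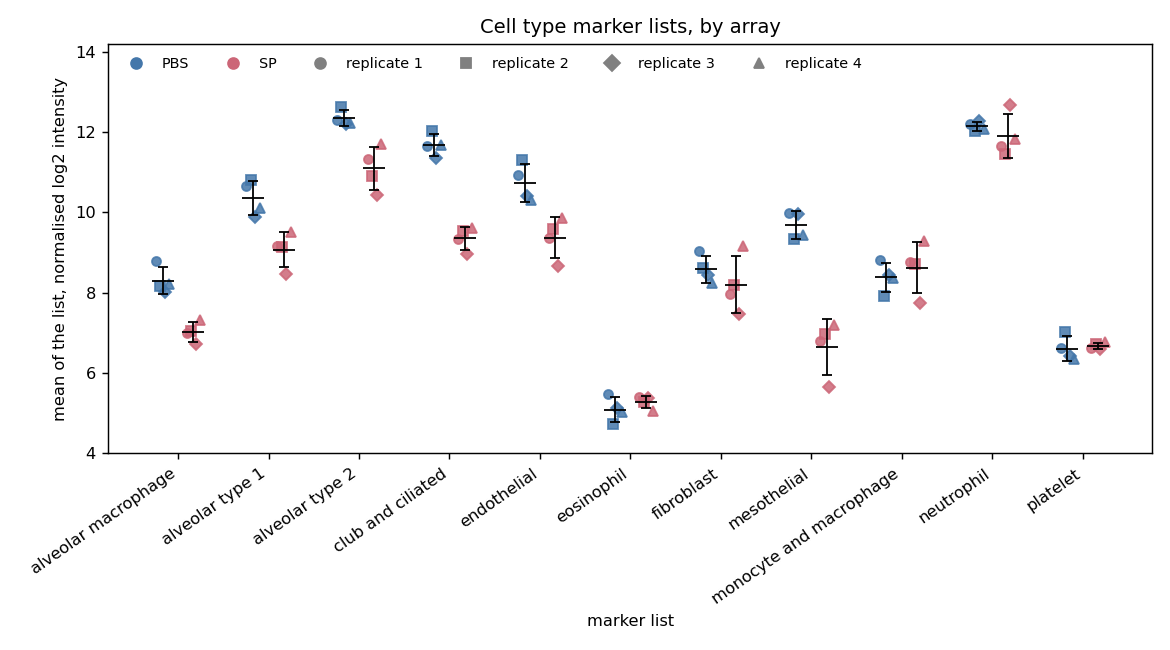
Mean normalised log2 intensity of each cell type marker list on each array (blue, PBS; red, SP; symbols, replicate number), with the mean and SD of the 4 arrays of a group in black. Endothelial, epithelial, mesothelial and alveolar macrophage lists lay lower in SP without overlap (for the endothelial list 8.67 to 9.86 against 10.31 to 11.31), while the neutrophil and the monocyte and macrophage lists overlapped.

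F10, Plau and F7 rose in SP, Thbd fell, and F3, F5 and Tfpi did not pass the test. With limma and a threshold of 0.05 on the p adjusted over all rows, 4 of the 7 genes were called, against 44.1% of all rows, and each of the 4 differed by at least 2-fold. The 3 that rose compare with 21.5% of all rows at this threshold and 6.37% at 2-fold, and the 1 that fell with 22.6% and 11.3%. In the same 4 genes the PBS and SP values did not overlap, which held for 49.0% of all rows. The median difference of the 7 genes was 0.34 log2 units, beside 0.10 over all rows. Because the genes were chosen with earlier results of these data known, these counts describe them and are no test of the set.

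**Figure D2:**
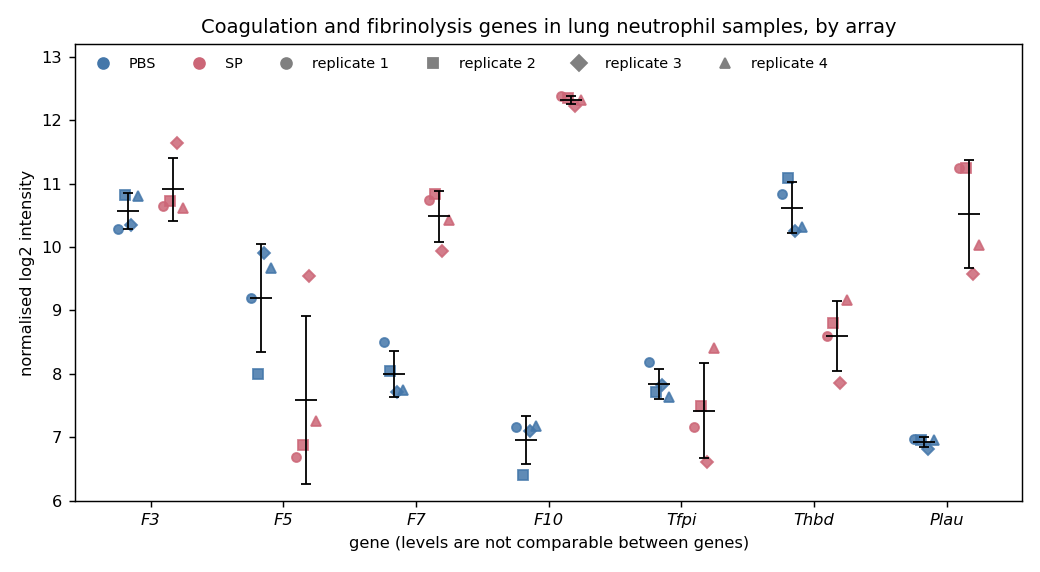
Normalised log2 intensity of the 7 measured genes on each array (blue, PBS; red, SP; symbols, replicate number), with the mean and SD of the 4 arrays of a group in black. All SP values of F10 (12.22 to 12.38) lay far above its PBS values (6.40 to 7.18), F7 and Plau were higher and Thbd lower without overlap, and SP replicate 3 had the highest SP values of F3 (11.64) and F5 (9.55).

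Expression of F7 and F10 is best known from liver, and both genes were measured well above background here. F7 and F10 lie side by side on mouse chromosome 8, with no other protein-coding gene between them in the RefSeq table. Their promoters are shown because the genes are neighbours that rose together, and the promoter of F3 because tissue factor is the partner of F7 and its own transcript did not pass the test. Each window runs from 250 bases before to 50 bases after the annotated start, on the + strand, 5′ to 3′, from RefSeq on GRCm38.p6. The F7 window is chr8:13025784-13026083, the F10 window chr8:13037058-13037357 and the F3 window chr3:121723287-121723586. Capitals mark matches to any of 4 motifs on either strand.
F7: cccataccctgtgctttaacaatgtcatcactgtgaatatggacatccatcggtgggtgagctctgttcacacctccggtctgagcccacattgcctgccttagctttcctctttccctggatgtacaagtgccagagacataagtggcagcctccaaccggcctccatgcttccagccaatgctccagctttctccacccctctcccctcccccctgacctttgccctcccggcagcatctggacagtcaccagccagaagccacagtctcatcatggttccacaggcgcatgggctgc
F10: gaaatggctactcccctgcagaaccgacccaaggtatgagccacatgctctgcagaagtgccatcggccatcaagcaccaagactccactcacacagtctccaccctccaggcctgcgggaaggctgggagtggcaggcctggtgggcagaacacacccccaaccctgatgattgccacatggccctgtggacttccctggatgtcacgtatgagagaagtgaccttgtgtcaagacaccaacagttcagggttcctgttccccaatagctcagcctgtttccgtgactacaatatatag
F3: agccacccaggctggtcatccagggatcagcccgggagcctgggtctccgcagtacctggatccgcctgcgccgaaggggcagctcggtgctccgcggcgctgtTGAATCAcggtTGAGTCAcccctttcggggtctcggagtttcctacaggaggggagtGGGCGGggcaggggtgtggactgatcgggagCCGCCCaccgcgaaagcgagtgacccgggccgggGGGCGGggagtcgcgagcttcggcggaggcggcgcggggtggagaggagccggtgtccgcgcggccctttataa
The motifs searched were AP-1 (TGANTCA, its own reverse complement), PU.1 (GAGGAAGT), Sp1 (GGGCGG) and the NF-κB consensus. Among 32851 mouse promoters of the same length, 7.81% held the AP-1 motif, 3.20% the PU.1 motif, 35.7% the Sp1 motif and 4.51% the NF-κB consensus. The F7 and F10 windows held no match to any of the 4, which says only that these letters are not in these windows. The F3 window held 2 AP-1 matches, at bases 105 to 111 and 116 to 122 of the window, and 3 Sp1 matches, none of them overlapping another. Promoters of 7 of the 9 genes were in the table, Plau and Thbd excepted, and no match to the NF-κB consensus or the PU.1 motif was found in any of them. For F3 and the others, too, this says only that these letters are not in these windows. Sites that depart from the 4 motifs were not searched.

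F10 (NM_001242368), which encodes the zymogen of the protease that makes thrombin, had PBS values of 7.17, 6.40, 7.10 and 7.18 and SP values of 12.38, 12.35, 12.22 and 12.32 in replicates 1 to 4. All SP arrays were high and close together, and PBS replicate 2 was the lowest array. The difference was 5.35 log2 units (standard error 0.17, 95% confidence interval 4.96 to 5.75), a 40.9-fold rise with an adjusted p of 8.31e-07 by limma. By absolute difference it ranked 8 among the 24625 rows. The SP mean was 12.32 ± 0.07 (SD, n = 4) and the PBS mean 6.96 ± 0.38.

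F7 (NM_010172), which encodes the protease that tissue factor activates and binds, had PBS values of 8.50, 8.05, 7.71 and 7.75 and SP values of 10.74, 10.83, 9.94 and 10.42. The groups did not overlap, and SP replicate 3 was the lowest SP array. The rise was 2.48 log2 units (standard error 0.24, 95% confidence interval 1.94 to 3.02), or 5.58-fold, with an adjusted p of 0.000101 by limma. Of the 10 monocyte and macrophage markers, Adgre1, Ccr2 and Ms4a7 were among the 4 higher in SP. Adgre1 was at 8.70 to 10.08 in PBS and 10.14 to 11.36 in SP (adjusted p = 0.0223 by limma), and did not pass the methods' t-test (0.0541) or limma without SP replicate 1 (0.0620) or 2 (0.0536). Csf1r, the brightest of the list, was at 9.81 to 10.97 and 10.93 to 11.57 (0.0547). Mrc1, the macrophage mannose receptor gene, fell by 2.70 log2 units (0.00448), and C1qa (0.02), C1qb (0.13), C1qc (-0.30) and Cx3cr1 (-0.12) were not called. On SP replicate 3, where the list had its lowest mean (7.75), F7 (9.94), F10 (12.22) and Plau (9.58) had their lowest SP values too. On SP replicate 4 the list had its highest mean (9.28), while F7 (10.42), F10 (12.32) and Plau (10.03) were next to lowest. The SP values of F10 differed little, from 12.22 to 12.38, so its order of arrays carries little weight. Replicate 3 was also the lowest SP array in the endothelial, epithelial, mesothelial, fibroblast, alveolar macrophage and platelet lists. The part of monocytes and macrophages in the rise of F7 and F10, and in that of Plau given below, was not tested.

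The genes around F7 and F10 were looked at after the values had been seen. Of the 4 protein-coding genes on each side in RefSeq order, 2 of 8 were higher by at least 2-fold and none lower, beside 6.37% and 11.3% of all rows. Both follow F10 directly, so F7, F10, Proz and Pcid2 formed a run of 4 neighbouring genes that rose. Proz encodes protein Z, a cofactor for inhibition of activated factor X. It had PBS values of 4.90, 5.44, 5.10 and 5.24, close to the level of the Y-linked genes, and SP values of 7.78, 7.79, 6.75 and 7.02 (difference 2.16, standard error 0.25, adjusted p = 0.000280 by limma). Pcid2, which encodes a component of an mRNA export complex, rose from 8.62 ± 0.19 to 9.71 ± 0.31 (SD, n = 4 each; adjusted p = 0.00104). Beyond the run, Cul4a differed by 0.13 log2 units (adjusted p = 0.480). It was called higher with array weights (0.31, 0.0258), with centred arrays (0.41, 0.0254) and after another quantile normalization (0.47, 0.00755). Lamp1, a lysosomal membrane gene, rose by 0.65 (0.00914), a call lost after another quantile normalization (0.44, 0.0991). On the F7 side Mcf2l differed by 0.08 (0.840) and was called higher with array weights (0.55, 0.0472). Atp11a fell by 0.78 (0.00118), Tubgcp3 differed by -0.20 (0.124) and Spaca7 by 0.17 (0.153), all by limma. A signal from transcription running from 1 gene into the next was not tested.

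**Figure D3:**
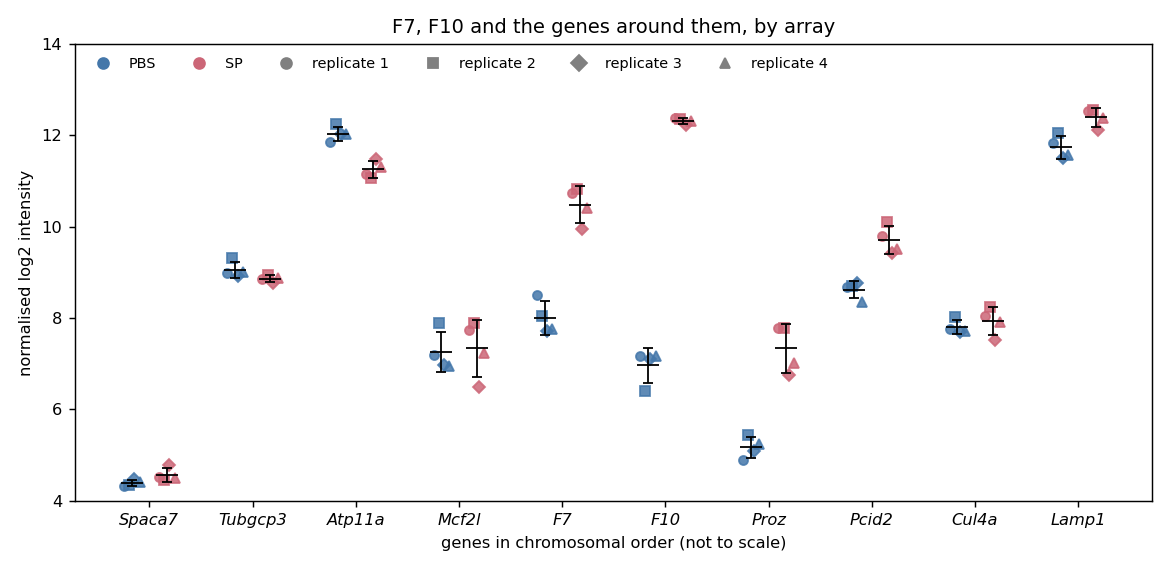
Normalised log2 intensity on each array (blue, PBS; red, SP; symbols, replicate number) of F7, F10 and the 4 protein-coding genes on each side, in chromosomal order and not to scale, with the mean and SD of a group in black. SP values lay above PBS values without overlap in F7, F10, Proz and Pcid2 and, by less than 2-fold, in Lamp1, and below them in Atp11a.

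F3 (NM_010171), the tissue factor gene, was at 10.29, 10.82, 10.35 and 10.80 in PBS and at 10.64, 10.73, 11.64 and 10.62 in SP. The groups overlapped, and only SP replicate 3 lay above all PBS arrays. The difference of 0.34 log2 units (standard error 0.25, 95% confidence interval -0.23 to 0.91) did not pass the test (adjusted p = 0.271 by limma). It was 0.10 without SP replicate 3 and 0.62 with the arrays centred on their medians, where it passed narrowly (adjusted p = 0.0498). Centring raises every SP difference, by a median of 0.28 log2 units over all rows.

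F5 (NM_007976), whose product is the cofactor of activated factor X, was at 9.19, 8.00, 9.91 and 9.67 in PBS and at 6.69, 6.88, 9.55 and 7.26 in SP. In 3 SP arrays it was below all PBS arrays, while SP replicate 3 lay within the PBS range. The difference of -1.60 log2 units (standard error 0.67, 95% confidence interval -3.14 to -0.07) did not pass over all rows (adjusted p = 0.0810 by limma). Without SP replicate 3 it was -2.25 (adjusted p = 0.00517) and with array weights -2.53 (0.000567), and both passed. That array also had the highest neutrophil marker mean, and the part of this in F5 was not tested.

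Of the natural anticoagulants, Thbd (NM_009378), the thrombomodulin gene, was at 10.83, 11.08, 10.26 and 10.31 in PBS and at 8.59, 8.81, 7.85 and 9.16 in SP. Every SP array was below every PBS array. The gene fell by 2.01 log2 units (standard error 0.30, 95% confidence interval -2.69 to -1.33), which is 4.04-fold, with an adjusted p of 0.000947 by limma. Endothelial markers fell in the same arrays. Calcrl went from 11.93 to 12.81 in PBS to 9.95 to 11.06 in SP, and Cdh5, the endothelial cadherin, from 11.53 to 12.41 to 10.68 to 11.21. Within SP, Thbd and the mean of the endothelial list put the arrays in the same order, with replicate 3 lowest (7.85 and 8.67), then replicates 1 and 2, and replicate 4 highest (9.16 and 9.86). The mesothelial, club and ciliated, alveolar macrophage, fibroblast and platelet lists gave this order as well, so it was not particular to endothelium. The platelet means differed little between SP arrays, from 6.61 to 6.77, so the order of that list carries little weight. The differences of the 11 endothelial genes ran from -2.05 (Kdr) to -0.35 (Pecam1), with a median of -1.33, and their part in the fall of Thbd was not tested.

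Tfpi (NM_001177319), the inhibitor of the tissue factor pathway, was at 8.18, 7.72, 7.82 and 7.64 in PBS and at 7.17, 7.50, 6.61 and 8.41 in SP. The groups overlapped, because SP replicate 4 was the highest array of all. The difference of -0.42 log2 units (standard error 0.34, 95% confidence interval -1.20 to 0.36) did not pass (adjusted p = 0.322 by limma), while without SP replicate 4 it was -0.74 and did (0.0320). Within SP, Tfpi ordered the arrays as Thbd and the same 6 marker lists did, and the part of these cells in Tfpi was not tested. To set initiator against inhibitor, the difference of F3 to Tfpi was taken within each array. It was larger in SP by 0.76 log2 units, with overlapping groups, and an exact two-sided permutation test over 70 arrangements gave p = 0.257.

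Of the fibrinolytic genes, Plau (NM_008873), which encodes urokinase, was at 6.98, 6.96, 6.81 and 6.96 in PBS and at 11.24, 11.24, 9.58 and 10.03 in SP. PBS arrays were nearly alike, and the SP arrays formed a high pair and a lower pair, all above PBS. The rise was 3.60 log2 units (standard error 0.37, 95% confidence interval 2.76 to 4.44), or 12.1-fold, with an adjusted p of 0.000140 by limma.

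The wider clotting and fibrinolysis list of 41 genes, none of them among the 9, had matched rows for 39. Of these, limma called 10 higher and 7 lower at the threshold of 0.05 (43.6% in all, near the 44.1% of all rows), and 22 were not called. At 2-fold, 6 were higher and 6 lower, a split that became 9 and 2 with centred arrays and 7 and 3 after another quantile normalization. The median difference was 0.10 log2 units, the same as over all rows, and 9 genes stayed at or below the highest Y-linked value (4.90) on every array.

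Among 9 further fibrinolysis genes, 3 were called higher and 1 lower (44.4%, beside 44.1% of all rows). Plgrkt, a plasminogen receptor of the cell surface, rose from 8.82 ± 0.23 to 11.37 ± 0.38 (SD, n = 4 each; 5.88-fold, adjusted p = 3.73e-05 by limma). Serpine2, the protease nexin that inhibits thrombin and urokinase, fell from 8.21 to 7.19 on average (2.03-fold, 0.00639). Serpinb2, which encodes plasminogen activator inhibitor 2 (PAI-2), was at 5.17, 4.56, 5.06 and 5.37 in PBS and at 6.04, 5.72, 10.08 and 6.90 in SP. No SP array overlapped PBS, but SP replicate 3 lay far above the others, and the difference of 2.15 log2 units did not pass (adjusted p = 0.0724). Without that array the difference was 1.18 and passed (0.0172). Plat, the tissue plasminogen activator gene, differed by 0.80 with overlapping groups (0.0891). Plg, the plasminogen gene, stayed between 4.23 and 4.62 on all arrays, at background level.

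Among 13 further clotting factor genes, 3 were called higher and 1 lower (30.8%, beside 44.1% of all rows). F13a1, the chain of factor XIII that crosslinks fibrin, was at 9.07, 8.43, 8.41 and 7.97 in PBS and at 9.68, 9.17, 10.27 and 10.44 in SP, and rose 2.68-fold (adjusted p = 0.00777 by limma). Klkb1, the plasma kallikrein gene, rose 2.24-fold, with SP replicate 3 (7.49) inside the PBS range of 7.21 to 7.93 (0.0413). It did not pass the methods' t-test (0.0834), nor limma when any 1 of 6 samples was left out (PBS replicates 1, 3 and 4 and SP replicates 1, 2 and 4). Of the 13, 6 stayed at or below the highest Y-linked value on every array, the prothrombin gene F2 among them.

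Machinery that makes clotting factors moved in both directions. All 4 genes of this group were called, beside 44.1% of all rows. Ggcx, the carboxylase that vitamin K-dependent factors such as VII and X need, fell from 9.55, 10.08, 9.45 and 9.37 in PBS to 7.59, 7.66, 6.10 and 8.42 in SP (4.50-fold, adjusted p = 0.00473 by limma). Vkorc1, which recycles vitamin K for that enzyme, fell from 9.04, 8.92, 8.75 and 8.63 to 6.84, 7.15, 5.67 and 7.79 (3.93-fold, 0.00421). Both ordered the SP arrays as Thbd did and as the endothelial, mesothelial, club and ciliated, alveolar macrophage, fibroblast and platelet lists did, with replicate 3 lowest and replicate 4 highest. Lman1 and Mcfd2 encode a receptor pair that carries factors V and VIII out of the endoplasmic reticulum. Lman1 fell 2.02-fold (0.0135) and Mcfd2 rose 2.20-fold (0.000412), and neither overlapped between groups.

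Of 8 further anticoagulant genes, 3 were called higher and none lower (37.5%, beside 44.1% of all rows). Only Proz, described above, was past 2-fold. Of 3 receptors for thrombin and related proteases, F2rl1, which encodes PAR2, the receptor that the tissue factor and factor VIIa complex and factor Xa can cut, fell from 7.76 ± 0.19 to 6.55 ± 0.33 (SD, n = 4 each; 2.31-fold, adjusted p = 0.000749 by limma). Vtn, the gene of the adhesive plasma protein vitronectin, was at 5.84 to 7.11 in PBS and at 5.20 to 5.52 in SP and fell 2.09-fold (0.00992).

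**Figure D4:**
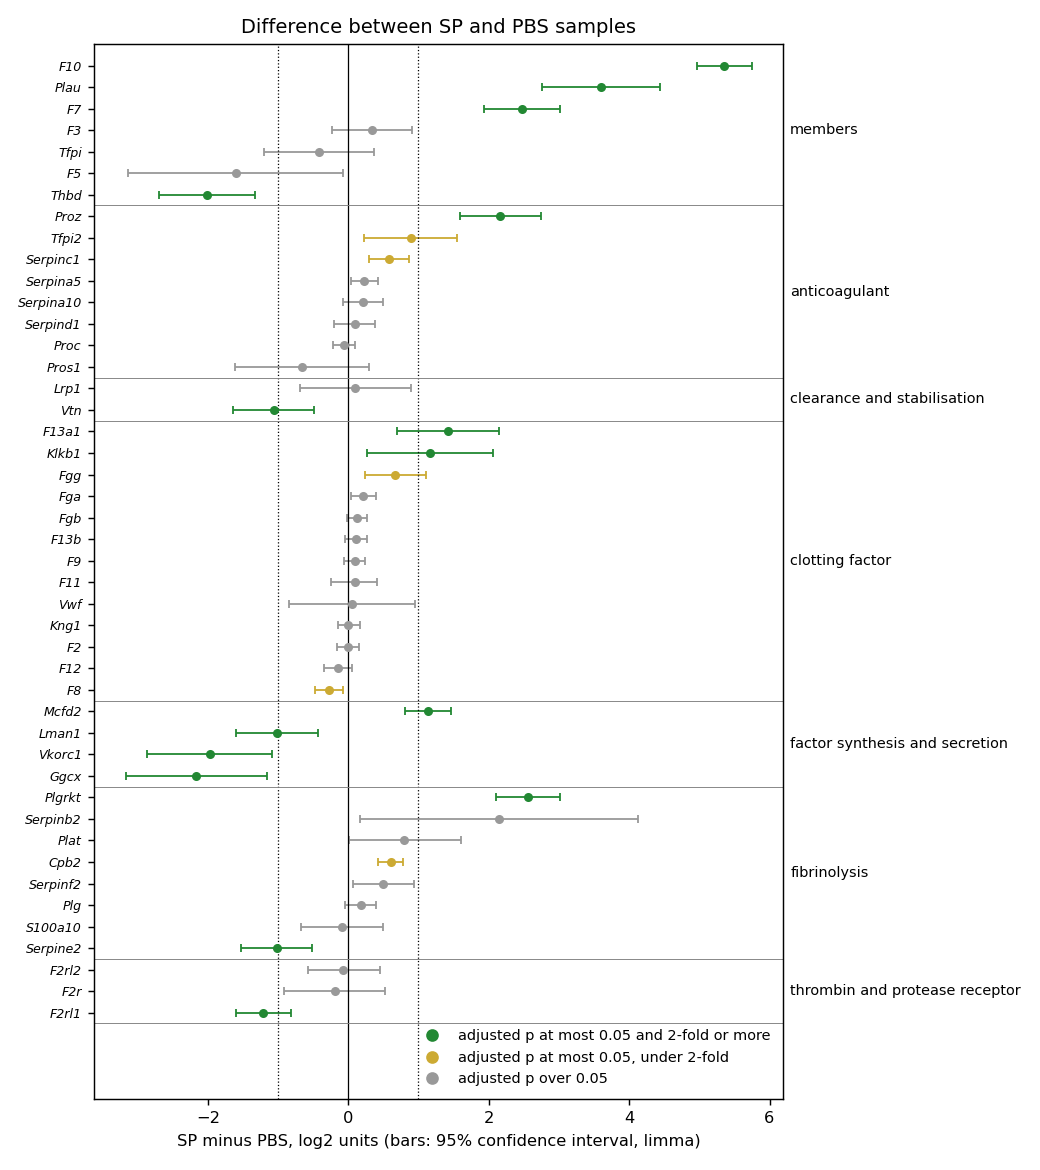
Difference between SP and PBS (log2 units, SP minus PBS) of the 7 measured genes, at the top, and of 38 of the 39 further genes of clotting and fibrinolysis by group, with the 95% confidence interval from limma; dotted lines mark 2-fold. F10 (5.35), Plau (3.60), Plgrkt (2.56) and F7 (2.48) lay farthest to the right and Ggcx (-2.17), Thbd (-2.01) and Vkorc1 (-1.97) farthest to the left, and Serpinb2 and F5 had the widest intervals.

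The gene with the most similar values over the 8 arrays was found for each of the 7 genes. As the arrays form a PBS and an SP group, the correlation mainly reflects the difference between groups for genes that were called. It was Fcgr1, the high affinity IgG receptor, for F10 (Pearson r of 0.999), Batf2, a transcription factor of the interferon response, for F7 (0.996), Npc1, a cholesterol transporter, for Plau (0.998) and Cers5, a ceramide synthase, for Thbd (0.999). Likeness of this kind was common, as 1003 genes had an r over 0.95 with F10, 644 with F7, 831 with Plau and 1912 with Thbd. For the genes that did not pass, it was less common, with 31 genes for F3, 58 for F5 and 19 for Tfpi. The closest were Btbd35f20 for F3 (0.986), Top1, a DNA topoisomerase, for F5 (0.997) and Col1a2, a collagen gene of fibroblasts, for Tfpi (0.984). Top1 differed by -0.29 log2 units and F5 by -1.60, so their values moved together on unlike scales.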

How the data were processed

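Neutrophil messenger RNA was measured on 8 arrays, 4 PBS and 4 SP, grouped by sample title. The authors deposited log2 values made by robust multi-array averaging, with background correction, GC and sequence adjustment, quantile normalization and median polish over custom probe mappings. Their notes name Affymetrix Expression Console, RMA and Partek. Array medians still differed (6.06 to 6.20 in PBS, 5.78 to 5.91 in SP). Values are relative within an array, and no genome build is attached to them. The microRNA arrays were not analysed here.

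RefSeq accessions were matched to symbols of GRCm38.p6, which named 19915 of 24625 rows (80.9%). Rows were compared with limma (version 3.58.1, R 4.3.3; lmFit and eBayes, no covariates, two-sided, Benjamini-Hochberg over all rows). The thresholds were an adjusted p of 0.05 and 2-fold (1 log2 unit). The exact permutation test of a within-array difference used scipy 1.17.1 (Python 3.11.15) over 70 arrangements. The planned difference of Thbd to Procr could not be computed, since Procr had no row. The members and gene lists were chosen with earlier results of these data known. Genes named were the 9 members, Serpinb2, Plat, Plg and F2rl1, the 12 pathway genes with the largest difference among those called at 2-fold, the 2 brightest genes of marker lists, and for each member the gene with the highest Pearson correlation. Neighbours of F7 and F10 and some further marker genes were added later. Results of 2 listed genes are counted but not reported here.

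On simulated data of 24625 rows, limma called 76 of 100 rows shifted by 1 log2 unit and 94 of 100 shifted by 2, with 10 false calls. Far fewer rows were shifted there than were called in the data (44.1%), so these counts do not carry over to the calls here. The methods name a one-way ANOVA, which for 2 groups is the equal-variance t-test and is called the methods' t-test here. Alternatives were that test, a robust prior with an intensity trend, centring of each array on its median and a second quantile normalization. Further alternatives were array weights, a replicate block, dim rows left out, and each sample left out.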

Additional observations from a re-analysis of the deposited data

Results flagged for a closer look

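Single arrays that stood far from the other 3 of their group, by Dixon's ratio at its 95% critical value, were found in 5 of 56 groups of 4 tested, and chance flags about 1 in 20. F3 had a high SP value in replicate 3, at 11.64 against 10.62 to 10.73 in the others. F10 had a low PBS value in replicate 2, at 6.40 against 7.10 to 7.18. Plgrkt was low in the same PBS replicate, at 8.48 against 8.89 to 8.98. Plau had a low PBS value in replicate 3, at 6.81 against 6.96 to 6.98, a gap of 0.15 log2 units. Spaca7, a neighbour of F7, had a high SP value in replicate 3, at 4.79 against 4.46 to 4.51, below the highest value of the Y-linked genes.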

How the results depend on the processing

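F7, F10, Thbd and Plau kept their direction and their call under all 15 alternatives, with differences of 2.36 to 2.76, 5.17 to 5.63, -2.20 to -1.73 and 3.36 to 4.04 log2 units and adjusted p by limma or the methods' t-test of at most 0.00694. Members called stayed between 4 and 5, and so did those at 2-fold. F3 was called with centred arrays (0.62) and ranged from 0.10 to 0.44 when 1 sample was left out. F5 was called with array weights (-2.53), with the replicate block (-1.60) and without SP replicate 3 (-2.25), and ranged from -2.25 to -1.30 with 1 sample left out. Tfpi ranged from -0.74 to -0.14 in that way. The 6 pathway genes lower by 2-fold became 3 with array weights, 2 with centred arrays and 3 with another quantile normalization, and 3 to 6 with 1 sample left out (3 without PBS replicate 1), and those higher were 5 to 9. Whether replicate numbers pair the samples was not settled. Deviations of same-numbered samples correlated at 0.02, 0.03, 0.35 and -0.27, and those of PBS and SP samples with unlike numbers at -0.36 to 0.28. The difference of F3 to Tfpi (0.76) was 0.24 to 1.18 with 1 sample left out. The exact permutation test cannot go below p = 0.0571 there, or below 0.125 with the replicate block, so these p-values bear on no call. The replicate block changed no other call of a member. Of 641 other values, for 43 further genes, 572 kept direction and side of the threshold, 27 lost the call, 26 gained it and 16 turned sign, none of them with a call. With centred arrays these were Tubgcp3 (0.08), Clic5 (0.12), Ccr3 (0.18), S100a8 (0.10) and Pf4 (0.10), with another quantile normalization Ccr3 (0.20) and Pf4 (0.15), and with array weights Clic5 (0.41). With 1 sample left out, Mcf2l ranged from -0.10 to 0.36, Clic5 from -0.37 to 0.21, Ccr3 from -0.54 to 0.42 and Pf4 from -0.59 to 0.04. Except where fewer samples or 1 added amount shows it, the cause was not tested.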

Other observations

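Clotting factors assemble on activated platelets. Of 8 platelet markers measured, 3 were called (37.5%, beside 44.1% of all rows), with 1 higher and 1 lower by at least 2-fold in SP. Itgb3, the integrin chain that binds fibrinogen and that other cells express too, was at 7.14 to 7.59 in PBS and at 8.98 to 9.85 in SP (difference 2.02 log2 units, adjusted p = 0.000213 by limma). Ppbp, a platelet chemokine gene, named after its values were seen, fell from a mean of 8.95 to 6.83 (0.00697). Pf4 overlapped between groups, at 7.70 to 8.36 and 7.15 to 9.02 (0.690). The mean of the list lay between 6.36 and 7.03 in PBS and between 6.61 and 6.77 in SP.

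Of 4 eosinophil markers 1 was called higher (25.0%, beside 44.1% of all rows), and none reached 2-fold. On every array 1 of the 4 stayed at or below the highest Y-linked value. Ccr3, the brightest gene of the list, ranged from 4.97 to 7.85 within PBS and from 5.95 to 6.46 within SP.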
